A study of Mus musculus with 48 samples.

Results

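A-to-I editing was compared between WT and E861A kidney at 532 edited sites, chosen from the 48715 known positions that were listed for every library. Coverage was required in each genotype, as over 100 reads in 2 or more of its 3 replicates, and 5128 positions met this. An edited site was a covered position whose editing level, from the pooled reads of a genotype's covered replicates, was above 1% in WT or in E861A. The 532 sites lay in 196 loci, a locus being a named transcript or a run of intergenic positions with gaps of at most 1000 bases. Of these loci 170 had a gene or transcript name. The 6 kidney libraries, 3 per genotype, belong to a series of 48 libraries from 8 tissues. WT mice were Adar1+/+ Ifih1-/- and E861A mice were Adar1E861A/E861A Ifih1-/-, so both groups lacked MDA5, the cytosolic sensor of double-stranded RNA encoded by Ifih1. All were 12-week-old male C57BL/6 mice, with 1 kidney library from each of 3 biological replicates per genotype, so that p-values measure the spread between mice of 1 genotype. Both alleles are constitutive, so every cell of the kidney carried them.

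ADAR enzymes deaminate adenosine to inosine within double-stranded RNA, and sequencing reads inosine as guanosine. Most substrates in mice are inverted repeats in 3′ untranslated regions (3′ UTRs), introns and non-coding RNAs, while a small set of sites lies in coding sequence and recodes an amino acid. ADAR1 is expressed widely, whereas ADAR2, encoded by Adarb1, is best known for recoding sites in neuronal transcripts and also edits its own pre-mRNA. The E861A substitution leaves ADAR1 protein in place but removes its deaminase activity. Microfluidic multiplex PCR followed by sequencing (mmPCR-seq) amplifies cDNA around known sites, and the editing level is the share of reads with G at the genomic A.

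The sequences below show 21 bases of the mm9 genome around sites that lost editing in E861A kidney, read 5′ to 3′ on the transcribed strand, with the edited adenosine in capitals. They are sites of the named falls with an E861A mean under 1%, and the recoding site of uc008wxi.1, which passed the test.
Agphd1 3′ UTR, chr9:54795009-54795029 (plus strand): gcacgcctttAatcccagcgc
Car5b 3′ UTR, chrX:160415954-160415974 (minus strand): ttaaaagagaAggtctcatct
Rragd 3′ UTR, chr4:33107382-33107402 (plus strand): gcgtatctctAtgtagccctg
Cds2 3′ UTR, chr2:132135359-132135379 (plus strand): tacagtgcttAatatgtgcca
uc012aji.1 lost site, chr17:6122598-6122618 (plus strand): atgcacctctAgctgtcctag
uc008wxi.1 Thr to Ala, chr5:31475843-31475863 (minus strand): ttggcctcgaActtgcgatcc

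A second set shows sites that stayed edited in E861A kidney, together with the most highly edited intronic site of Adarb1. Apart from the Adarb1 site, they are named sites at which the genotypes overlapped.
Cog3 Ile to Val, chr14:76119516-76119536 (minus strand): cattaaggaaAtttccctgga
Flna Gln to Arg, chrX:71472191-71472211 (minus strand): tctagtcttcAggtgaggcac
Copa Ile to Val, chr1:174022469-174022489 (plus strand): cgtttgggatAtttctggtga
uc012aji.1 kept site, chr17:6123037-6123057 (plus strand): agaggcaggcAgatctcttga
Rpa1 3′ UTR, chr11:75114507-75114527 (minus strand): aacagaaattAtgtcacaagt
Dclre1c 3′ UTR, chr2:3377640-3377660 (plus strand): aaataaaactAgcaccatgga
Iqgap1 3′ UTR, chr7:87857164-87857184 (minus strand): aagaaaaaggAaaaaaaaaag
Adarb1 intron, chr10:76786795-76786815 (minus strand): ggaggatgttAtaaatgaaaa

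Coverage summed over positions was 6569793 to 7959844 in WT and 5761614 to 7144777 in E861A kidney libraries, and 4800 to 6074 positions per library had more than 100 reads. The median coverage of those positions was 875 to 1083 reads. Reads are PCR copies without molecular identifiers, and among sites with a mean level above 1% the SD between replicates was in the median 5.46 times the binomial counting error in WT and 5.48 times in E861A. The spread between replicates and not the read number therefore set the precision. The genotypes could not be checked from these tables, since the 5 listed positions in Adar had no reads in any library and Ifih1 had no listed position. Of 8 kidney marker genes 1 had a listed position, which had no reads. Of 12 neuronal genes 10 were read more than 100 times in all 6 brain libraries and 5 in all 6 kidney libraries, whereas Grik1 and Grm4 reached at most 1 and 17 reads in kidney. The libraries are of whole tissue, in which fewer cells of a type and less RNA per cell cannot be told apart.

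Mean editing was lower in E861A kidney. The limit of 1% in either genotype admitted 358 of the 532 sites through WT alone and 41 through E861A alone, so the direction at these sites was partly fixed by their choice. At the 457 sites read in every one of the 6 libraries, editing averaged 8.05%, 7.97% and 6.31% in the WT replicates and 1.68%, 2.00% and 2.06% in the E861A replicates. The genotypes did not overlap, and the WT mean of 7.44% ± 0.985 (SD, n = 3) stood against 1.91% ± 0.206 (n = 3) in E861A. The difference of -5.53 percentage points had a two-sided exact permutation p of 0.1, the smallest that 3 against 3 allows. The number of these sites above 1% was 356, 340 and 265 in the WT libraries and 70, 122 and 104 in the E861A libraries. WT replicate 3 had the fewest edited sites of its genotype, and E861A replicate 1 the fewest of all. Levels above 20% were measured at 37 to 53 sites in a WT library and at 8 to 13 in an E861A library. As a description of sites chosen in this way, the mean level was lower in E861A at 471 of the 532 and higher at 61.

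Of the 532 sites 91 were lower in E861A kidney (17.1% called; limma with Benjamini-Hochberg adjustment) and 0 were higher. At an unadjusted p under 0.05 there were also 0 higher sites, as there were with a quasi-binomial fit to the read counts, but a fit over all 48 libraries gave 8 and testing without the edited limit gave 2. On the untransformed level 24 sites were lower. The 91 sites lay in 53 loci, and in each of them every E861A value was below every WT value. Among the 457 sites read in all 6 libraries, 199 were separated in this way with E861A lower (43.5%) and 1 with E861A higher. The fall at the 91 sites ranged from 2.62 to 65.6 percentage points with a median of 12.8, and the mean E861A level was under 1% at 79 of them. Without WT replicate 1 or 2 the count of lower sites was 55, and without WT replicate 3 it was 200. At 71 sites no edited read was seen in any covered E861A replicate.

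Calls are described here by the level in WT kidney, which is 1 side of the difference tested and limits how far a site can fall, so the order of the shares is no separate result. With a WT mean of at least 20%, 28 of 51 sites were lower, and the median level was 30.3% in WT and 3.81% in E861A. Between 5% and 20% it was 47 of 142 sites, with medians of 8.72% and 0.191%. Between 1% and 5% it was 16 of 295 sites, with medians of 2.14% and 0.144%, although 110 of these sites had every E861A value below every WT value. Under 1%, where sites entered through E861A or through a higher pooled level, it was 0 of 44 sites, with medians of 0.207% in WT and 1.73% in E861A, and 4 of them had every E861A value above every WT value. Of the 51 sites with the highest WT levels, 16 stayed above 1% in every covered E861A replicate.

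**Figure D1:**
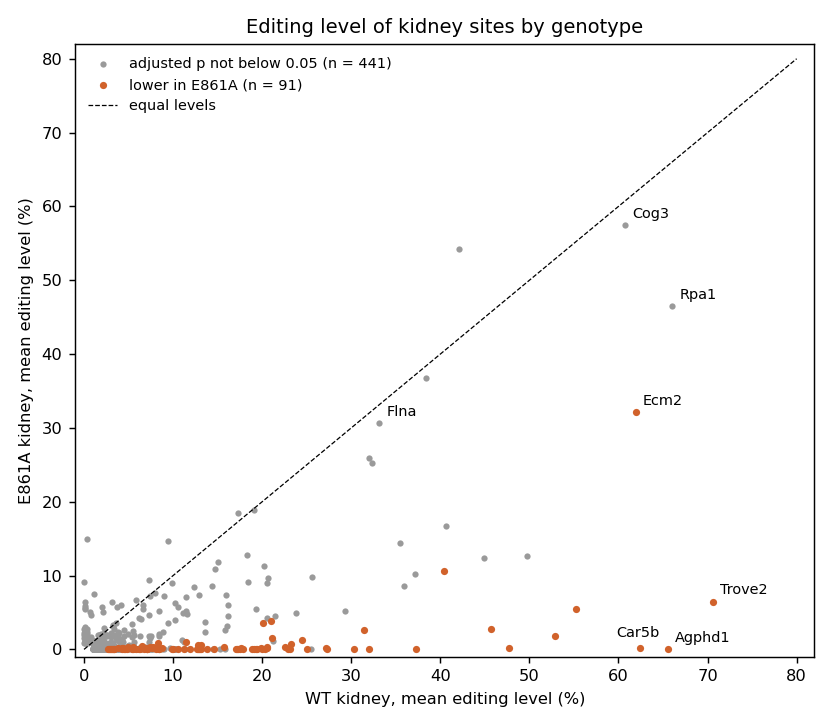
Each point is 1 of 532 kidney sites, with the mean editing level in WT on the x axis and in E861A on the y axis, both in percent. The 91 sites lower in E861A lie mostly along the bottom, while Cog3 and Flna lie near the dashed line of equal levels.

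The largest fall was at chromosome 9, position 54795019, in the 3′ UTR of Agphd1, the older symbol of Hykk, which encodes hydroxylysine kinase. Its level was 77.7%, 78.1% and 40.9% in WT and 0% in all 3 E861A replicates, 0 of 1490 reads, which allows a share of up to 0.201% by counting error alone. The change was -7.67 ± 0.70 (SE) on the log2 scale of the editing ratio, that is of (level + 0.01) over (1 - level + 0.01), with an adjusted p of 0.00119 by limma. The next base, position 54795020, was edited at 45.4%, 34.7% and 15.8% in WT and at 0%, 0.136% and 0.224% in E861A (adjusted p = 0.00183, limma, and 0.0619 on the untransformed level). Both positions were under 1% in every E861A replicate. Position 54795025 was at 3.76%, 3.89% and 0.425% in WT and at 0%, 0.152% and 0% in E861A (adjusted p = 0.127, limma). The fourth site of the cluster, position 54795039, was at 15.1%, 18.2% and 21.7% in WT and at 9.63%, 14.4% and 14.2% in E861A, a difference that did not pass the test (adjusted p = 0.369, limma).

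In Trove2, the older symbol of Ro60, whose protein binds misfolded small RNAs, position 145602508 of chromosome 1 was edited at 66.2%, 69.1% and 76.5% in WT and at 0%, 5.57% and 13.8% in E861A (log2 change -5.60 ± 0.98, adjusted p = 0.00797, limma). In Car5b, a mitochondrial carbonic anhydrase gene on chromosome X, position 160415964 was edited at 69.7%, 67.2% and 50.3% in WT and at 0.270%, 0.231% and 0.0508% in E861A (-7.15 ± 0.49, adjusted p = 0.000688). The WT level of Car5b was similar to that of Trove2, but its E861A values stayed under 1% in all 3 replicates. Rragd encodes a Rag GTPase of the amino acid sensing branch of mTORC1, and its 3′ UTR site at position 33107392 of chromosome 4 was edited at 52.3%, 59.5% and 31.4% in WT and at 0%, 0.388% and 0.106% in E861A (-6.31 ± 0.57, adjusted p = 0.00119). Ankrd28 encodes a regulatory subunit of protein phosphatase 6. Its site at position 32513849 of chromosome 14 was at 67.8%, 57.2% and 33.7% in WT and at 0.0831%, 1.74% and 3.43% in E861A (-5.56 ± 0.75, adjusted p = 0.00294). When sites were tested without the edited limit, the Trove2 and Ankrd28 sites lost the call, with an adjusted p of 0.158 and 0.0613.

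Of the 10 largest falls, 2 were in Cds2, which encodes a CDP-diacylglycerol synthase of phospholipid synthesis. Position 132135616 of chromosome 2 was edited at 32.3%, 41.3% and 63.5% in WT and at 0.130%, 7.60% and 0.712% in E861A (adjusted p = 0.00879, limma, and 0.158 without the edited limit). Position 132135369 was at 41.1%, 29.6% and 20.1% in WT and had no edited read among 2689 in E861A (adjusted p = 0.00172). WT replicate 3 was the highest WT library at the first position and the lowest at the second, although both lie in 1 transcript. The remaining large falls were in the non-coding RNAs uc007vsb.1 and uc012aji.1. The site of uc007vsb.1 at position 55087127 of chromosome 15 was at 67.4%, 59.7% and 38.5% in WT and at 16.4%, 0% and 0% in E861A (adjusted p = 0.0214), so that 1 E861A library stood apart from the others. This call was lost in 4 of 19 alternatives, with an adjusted p of up to 0.286, among them leaving out WT replicate 1 (0.0881), WT replicate 2 (0.0833) or E861A replicate 3 (0.0502). The site of uc012aji.1 at position 6122608 of chromosome 17 was at 42.9%, 35.5% and 33.3% in WT and had no edited read among 4074 in E861A (adjusted p = 0.000787).

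Neighbouring sites share reads, so editing was also averaged over the sites of a locus that were read in all 6 libraries, for the 61 loci with at least 3 such sites. Of these 38 were lower in E861A kidney (62.3% called, limma) and 0 were higher, 0 also at an unadjusted p under 0.05 among the 40 loci that reached it. In 41 loci every E861A mean was below every WT mean, and in 0 it was above. The lower loci lost between 56.7% and 99.7% of their WT level, with a median of 90.8%, and 24 of the 38 had a mean under 1% in E861A.

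Car5b, Agphd1, Cds2 and Trove2 were among the loci with the largest fall. The mean over 3 Car5b sites was 37.6%, 35.4% and 23.6% in WT and 0.140%, 0.185% and 0.0169% in E861A (log2 change -5.43 ± 0.42, adjusted p = 7.53e-06, limma). Car5b was near 0 in every E861A replicate. The Cds2 mean was 22.2%, 19.4% and 21.7% in WT and 0.0522%, 1.94% and 0.200% in E861A, and that of Trove2 was 23.0%, 24.0% and 14.9% against 0.0812%, 1.07% and 2.43%. Agphd1 kept more, with 35.5%, 33.7% and 19.7% in WT and 2.41%, 3.67% and 3.61% in E861A (adjusted p = 0.000139), most of it at position 54795039.

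Loci with the most edited sites did not behave alike. Rpa1, which encodes the large subunit of the single-stranded DNA binding protein RPA, had 15 edited sites, the most of any locus. Its mean was 11.2%, 7.76% and 10.8% in WT and 3.97%, 7.44% and 6.83% in E861A, and although the values did not overlap the locus did not pass the test (adjusted p = 0.143, limma). Dclre1c, which encodes the nuclease Artemis, had 14 edited sites, of which 0 were called. Its mean was 3.72%, 4.93% and 5.10% in WT and 2.76%, 4.31% and 1.79% in E861A, a log2 change of -0.56 with a 95% interval of -1.56 to 0.44. In contrast Ankrd28, also with 14 sites, fell from 21.0%, 16.9% and 9.75% to 4.92%, 1.44% and 3.99% (adjusted p = 0.00418), with 5 sites called.

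The non-coding RNA uc012aji.1 had 12 sites and fell from 21.6%, 19.5% and 24.5% to 3.08%, 7.68% and 9.06% (adjusted p = 0.00253, limma). Slc35e2, of the nucleotide sugar transporter family, had 10 sites and fell from 7.88%, 10.2% and 8.37% to 0.0696%, 0.876% and 0.198% (adjusted p = 0.000415). Its relative Slc35e1, had 10 edited sites, 6 of them read in every library, and was at 2.13%, 3.83% and 0.369% in WT and 3.30%, 0.350% and 1.26% in E861A, and the genotypes overlapped (adjusted p = 0.787). Mgat4a, a Golgi N-acetylglucosaminyltransferase gene, fell from 10.9%, 10.2% and 4.61% to 0.149%, 0.150% and 0.0523% (adjusted p = 0.000415). Fbxl17, an F-box gene, fell from 3.21%, 6.39% and 1.59% to 0.0698%, 0.546% and 0.231% (adjusted p = 0.0120), and Cdk7, a kinase gene of transcription and the cell cycle, from 2.94%, 5.50% and 3.22% to 0.196%, 1.15% and 0.387% (adjusted p = 0.0117). Fbxl17 lost the call in 1 of 13 alternatives (adjusted p = 0.0568, limma). The nucleolin gene Ncl fell from 6.82%, 5.31% and 2.85% to 2.72%, 1.38% and 0.620%, and 9930104L06Rik from 2.37%, 3.45% and 1.51% to 0.0378%, 0.202% and 1.38%. Both had an adjusted p of 0.0473, and each lost the call under 9 of 13 alternatives, which included leaving out single libraries.

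**Figure D2:**
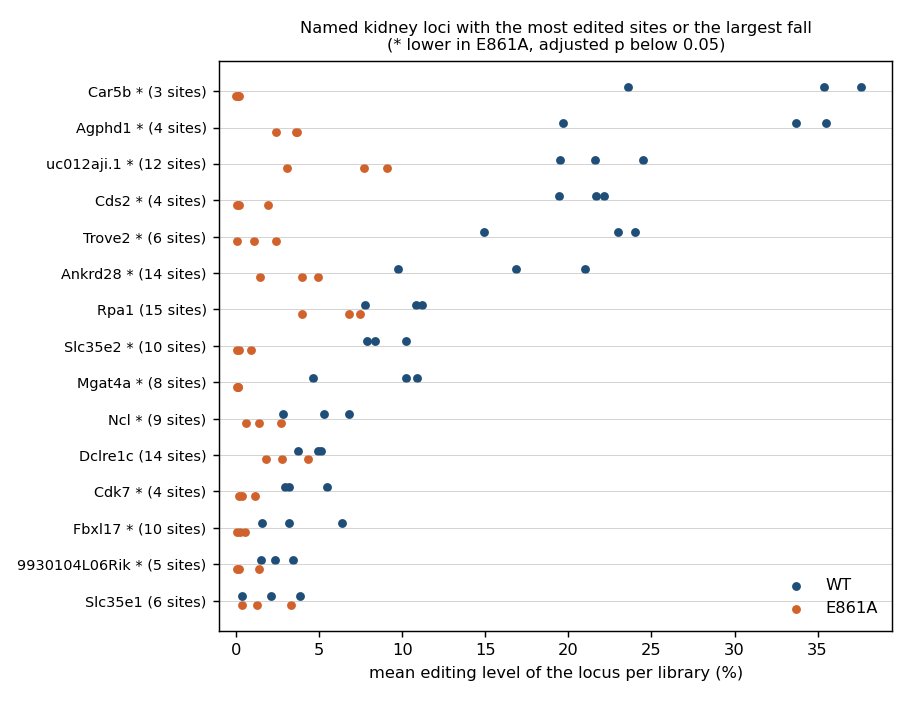
Points are the mean editing level in percent of each locus in each of the 6 kidney libraries, for named loci with the most edited sites or the largest fall, and an asterisk marks loci lower in E861A. Car5b, Cds2 and Mgat4a fall to near 0, whereas Rpa1, Dclre1c and Slc35e1 keep part of their WT level.

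By annotation 381 of the 532 sites lay in 3′ UTRs, 55 were intergenic, 54 intronic, 18 in non-coding RNAs, 13 recoding, 9 in 5′ UTRs and 2 synonymous. In 3′ UTRs the average over the 321 sites read throughout was 8.07%, 8.47% and 6.03% in WT and 1.54%, 1.57% and 1.69% in E861A, a loss of 78.7%, and 77 of the 381 sites (20.2%) were lower in E861A, against 17.1% of all edited sites. Intergenic sites lost 83.9%, from 4.94% ± 1.54 to 0.795% ± 0.404 (SD, n = 3), with 6 of 55 sites called (10.9%). Non-coding RNA sites had the highest WT level and were at 19.3% ± 1.06 in WT and 4.74% ± 1.59 in E861A, with 6 of 18 sites called (33.3%), all in uc007vsb.1 and uc012aji.1. The 18 sites lay in 4 loci, with 12 in uc012aji.1 and 4 in uc007vsb.1, so the class values are largely those of these transcripts. In the 3′ UTR, intergenic and non-coding RNA classes the WT and E861A libraries did not overlap.

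Recoding sites had a smaller loss in their class mean but not in their median change, which was -2.83 points over the 13 sites against -2.47 over all edited sites. Their mean over 11 sites was 14.5%, 13.0% and 14.6% in WT and 10.5%, 9.81% and 10.5% in E861A, a loss of 26.8%, and it rests largely on Cog3 and Flna, the recoding sites with the highest WT levels. The genotypes did not overlap here either, and 1 of 13 recoding sites was called (7.69%, against the 17.1% of all edited sites). Intronic sites were at 4.64%, 3.64% and 5.55% in WT and at 0.464%, 3.14% and 3.27% in E861A, where replicate 1 stood far below the others, and 1 of 54 was called (1.85%), position 61954893 of chromosome 11 in Specc1. Of the 43 intronic sites averaged, 7 were in Adarb1, whose E861A means were 0.0775%, 8.46% and 7.75%. Another 8 were in S100pbp, at 0.0380%, 0.393% and 6.49% in E861A. The 9 sites in 5′ UTRs were at 0.776% to 1.65% in WT and 0.538% to 1.89% in E861A, which overlapped, and 0 of 9 sites were called at the adjusted threshold. Two-sided exact permutation p-values were 0.1 for all classes except 5′ UTRs (0.7) and synonymous sites (1), and none could be lower with 3 against 3. Differences between the classes were not tested.

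**Figure D3:**
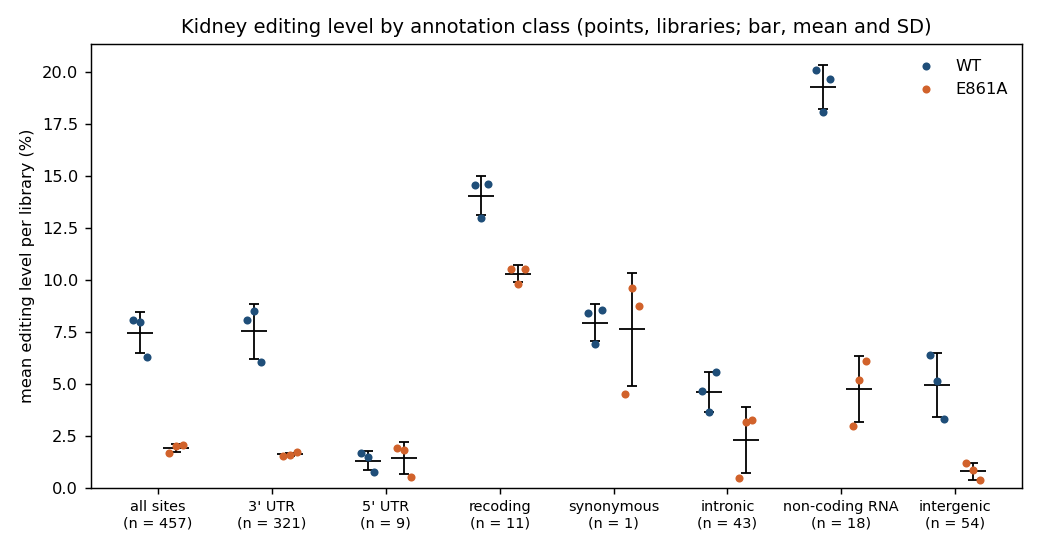
Points are the mean editing level in percent of each kidney library by annotation class over sites read in all 6 libraries, with bars for the mean and SD of 3 libraries. The 3′ UTR, intergenic and non-coding RNA classes separate widely by genotype, recoding sites separate by less, and 5′ UTR values overlap.

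The 13 recoding sites differed widely in the share of the WT level that was left in E861A, from 0% in Kcnma1 and 0.902% in Blcap through 49.3% in Gabra3 and 56.2% in Cyfip2 to 94.6% in Cog3, while Gli1 had the higher mean in E861A. The Ile to Val site of Cog3, a subunit of the conserved oligomeric Golgi complex, was edited at 65.0%, 55.9% and 61.2% in WT and at 57.0%, 57.0% and 58.3% in E861A, which overlapped (log2 change -0.20, 95% interval -0.86 to 0.47). The neighbouring synonymous Cog3 position was at 8.39%, 6.90% and 8.52% in WT and at 4.52%, 9.60% and 8.73% in E861A. Flna encodes a filamin, which crosslinks actin, and its Gln to Arg site was edited at 33.7%, 36.1% and 29.5% in WT and at 30.9%, 28.7% and 32.3% in E861A (-0.16, interval -0.97 to 0.65). Copa encodes a subunit of the COPI coat, and its Ile to Val site was at 9.48%, 9.79% and 10.5% against 10.6%, 7.25% and 9.20% (-0.15, interval -1.18 to 0.88). These 3 recoding sites overlapped between genotypes, and the intervals still allow changes in either direction.

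Other recoding sites had lower levels in E861A. The Thr to Ala site of the transcript uc008wxi.1 was edited at 8.05%, 9.46% and 5.41% in WT and at 0.289%, 0.228% and 0% in E861A, and it was the 1 recoding site that passed the test (log2 change -2.97 ± 0.50, adjusted p = 0.00697, limma). On the untransformed level it did not pass (adjusted p = 0.117). The Tyr to Cys site of Blcap, a known ADAR substrate, was at 12.8%, 0.473% and 4.14% in WT and at 0%, 0.157% and 0% in E861A (-2.25 ± 0.87, adjusted p = 0.127). Its WT replicates differed widely, and it did not pass, although it passed with an offset of 0.001 (adjusted p = 0.0426) and without WT replicate 2 (0.0389). The Arg to Gly site of Ccni, the cyclin I gene, was at 2.27%, 2.05% and 1.24% in WT and at 0.302%, 0.196% and 0.0799% in E861A, with no overlap but an adjusted p of 0.113. It passed in 3 of 18 alternatives, lowest without WT replicate 3 (adjusted p = 0.0105). The Lys to Glu site of Cyfip2, of the actin regulating WAVE complex, was at 3.99%, 3.04% and 4.62% against 0.934%, 2.94% and 2.67% (adjusted p = 0.380).

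Recoding sites of neuronal receptor genes were read in kidney as well. The Arg to Gly site of the AMPA receptor gene Gria3 was edited at 3.26%, 9.11% and 20.6% in WT and at 0.950%, 1.81% and 0.997% in E861A (log2 change -2.29 ± 0.74, adjusted p = 0.0777, limma). The Ile to Met site of the GABA-A receptor gene Gabra3 was at 15.7%, 23.8% and 15.9% in WT and at 6.81% and 11.4% in the 2 E861A replicates with more than 100 reads (-1.12 ± 0.56, adjusted p = 0.213). At both sites the genotypes did not overlap, and neither passed the test. Gria3 passed in 3 of 19 alternatives, among them without WT replicate 1 (adjusted p = 0.0484), and Gabra3 met the criterion of the study's methods, an unadjusted F test at 0.1 joined to a difference of 5.0 points or more. Kcnma1, a calcium-activated potassium channel gene, was at 7.76%, 0.733% and 0% in WT and had no edited read among 437 in E861A, which allows a level of up to 0.686%. The motor protein gene Kif1a exceeded 1% in WT replicate 3 alone, at 7.50%, and Gli1, a transcription factor gene of Hedgehog signalling, in E861A replicate 2 alone, at 3.81%. The synonymous site of Son, which encodes a splicing cofactor, was covered in 2 replicates per genotype, at 6.90% and 0% in WT and 0.556% and 0% in E861A.

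**Figure D4:**
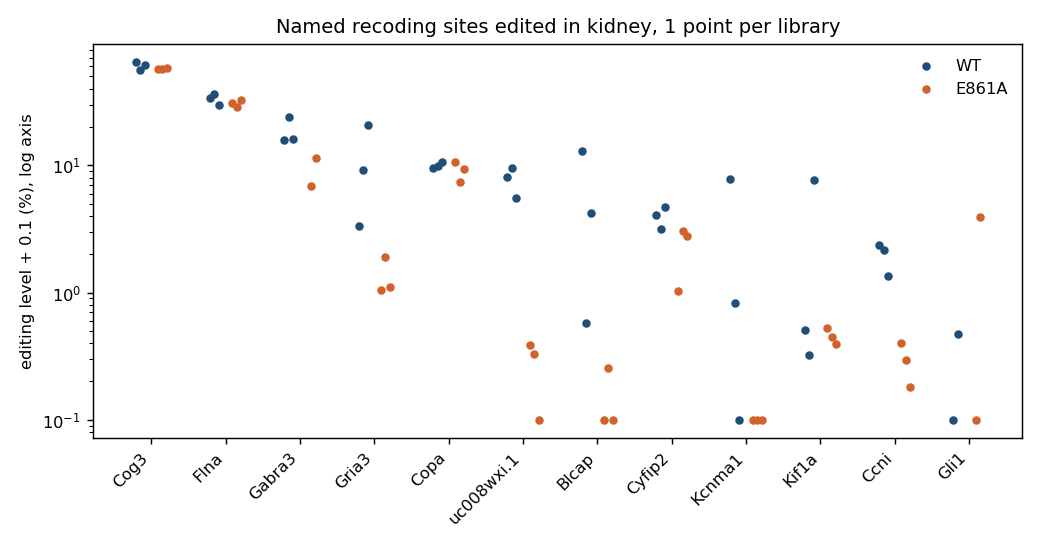
Each point is the editing level of 1 of 12 recoding sites in 1 kidney library, in percent with 0.1 added, on a log axis, with sites ordered by their WT mean. Cog3, Flna and Copa overlap between genotypes, while uc008wxi.1, Blcap and Ccni drop under 1% in all E861A libraries.

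Adarb1, the gene of ADAR2, had 7 edited intronic sites within 38 bases on chromosome 10, and 0 of them passed the test. The highest, position 76786805, was edited at 32.1%, 40.8% and 49.1% in WT and at 0%, 27.4% and 23.0% in E861A (log2 change -2.70 ± 1.34, adjusted p = 0.203, limma). Position 76786829 was at 9.92%, 18.2% and 33.8% in WT and at 0%, 10.1% and 19.0% in E861A. At both positions E861A replicate 1 had no edited read, and the other two E861A replicates were above 10%. Position 76786833 was at 1.96%, 1.58% and 12.1% in WT and at 0.272%, 0.218% and 0.369% in E861A, with no overlap (adjusted p = 0.131, and 0.0218 without WT replicate 3). The remaining 4 sites varied between replicates of both genotypes. Position 76786813 was at 1.5%, 9.31% and 0.184% in WT and 0.271%, 5.14% and 11.9% in E861A, and position 76786834 at 5.01%, 0% and 11.7% against 0%, 5.67% and 0%. Positions 76786797 and 76786803 exceeded 1% in E861A replicate 2, at 4.26% and 6.53%, and in 0 other E861A replicates. Position 76786803 was higher in E861A in the fit over all 48 libraries (adjusted p = 0.0401), and position 76786805 met the criterion of the study's methods. E861A replicate 1 also had the fewest sites above 1% of all kidney libraries, and without this library the change at position 76786805 was -0.99 with an adjusted p of 0.195.

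Of 491 sites edited in WT kidney, 133 (27.1%) exceeded the 1% limit in E861A too. A Wilson 95% interval of 23.3% to 31.2% treats the sites as independent, although sites of a locus share reads. It does not measure the spread between mice, and the share is a description. The 133 sites made up 76.4% of those edited in E861A. Without E861A replicate 2 the share was 21.5%. Of the sites edited in WT, 211 (43.0%) exceeded 1% in every covered replicate and 127 (25.9%) in exactly 1. Of those edited in E861A, 43 (24.7%) did so in every covered replicate and 83 (47.7%) in exactly 1. The 41 sites edited in E861A and not in WT included 30 that exceeded 1% in 1 replicate and 2 that did so in every covered replicate. These 2, named here after their values were seen, were low. Position 4041391 of chromosome 11 in Ccdc157 was at 2.41%, 1.03% and 1.65% in E861A and at 0.966%, 0.190% and 1.19% in WT, and position 124690359 of chromosome 6 in uc009drp.1 was at 1.87% and 1.48% in the 2 covered E861A replicates.

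Outside coding sequence several sites kept a high level. Over all classes, coding sites included, 40 sites in 25 loci exceeded 1% in every covered replicate of both genotypes. At 25 of them the genotypes overlapped, while at 15 every E861A value was below every WT value, and 4 were called lower. The non-coding RNA uc012aji.1 held both kinds: position 6123047 was at 32.9%, 42.5% and 40.0% in WT and at 35.9%, 38.5% and 35.7% in E861A (log2 change -0.10, 95% interval -0.90 to 0.70), on the same transcript as the site at which no edited read was left. In Iqgap1, which encodes a cytoskeletal scaffold protein, position 87857174 of chromosome 7 was at 20.5%, 18.6% and 18.2% in WT and at 19.5%, 18.5% and 18.8% in E861A (-0.01, interval -0.90 to 0.87). That adenosine lies within a run of adenosines and guanosines, as the sequence above shows. In Dclre1c, position 3377650 was at 29.6%, 30.1% and 37.3% in WT and at 32.6%, 24.8% and 18.3% in E861A (-0.51, interval -1.51 to 0.49).

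In Rpa1, position 75114517 of chromosome 11 was at 67.2%, 53.6% and 77.2% in WT and at 16.5%, 59.7% and 63.1% in E861A (log2 change -1.30, 95% interval -3.26 to 0.67). E861A replicate 1 was again the lowest library. In C330018D20Rik on chromosome 18, position 57116639 was at 32.0%, 35.1% and 59.1% in WT and at 62.1% and 46.5% in the 2 covered E861A replicates. Position 57116643 of the same transcript was at 15.6%, 46.0% and 34.3% against 43.6% and 8.16%. In uc012eok.1, position 86364934 of chromosome 6 was at 18.5%, 21.6% and 11.8% in WT and at 23.1%, 9.51% and 22.7% in E861A. All of these values overlapped between genotypes. Ecm2, an extracellular matrix gene, was the exception among the 10 highest E861A levels, since position 49627526 of chromosome 13 fell from 56.0%, 59.6% and 70.2% to 41.3%, 30.8% and 24.2% (adjusted p = 0.0298, limma) while staying above 20% in all replicates. This call was lost in 9 of 19 alternatives, with an adjusted p of up to 0.261. In 8 loci a site called lower stood beside another site above 1% in every covered E861A replicate.

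Gene lists were read against all edited sites, of which 17.1% were lower with a median change of -2.47 percentage points. Among metabolic enzymes and carriers 14 of 50 sites were lower in 8 of 16 genes, with a median of -2.83, and 6 of 7 loci tested were lower, against 62.3% of all loci tested. The loci lower in the other lists were 2 of 4 for Golgi and membrane traffic, 3 of 5 for DNA replication and repair, 3 of 6 for RNA binding, 1 of 3 for cytoskeleton and 2 of 2 for immune signalling. The metabolic genes included Cds2 with 3 called sites of 4, Agphd1 with 2 of 4 and Pfas with 1 of 4, while Qpctl and Taz had 0 of 4 each and Gla, the lysosomal alpha-galactosidase gene, had 1 of 8. Among genes of Golgi, secretion and membrane traffic 9 of 44 sites were lower, in Mgat4a, Slc35e2 and Mmgt1, and Slc35e1 had 0 of 10. The median change there was -3.36. Among DNA replication and repair genes 7 of 54 sites were lower (median -2.02), with 3 of 10 in Cdk7 and 3 of 4 in Mdc1, a DNA damage mediator, against 0 of 15 in Rpa1, 0 of 14 in Dclre1c and 0 of 4 in Tet1. Among RNA binding and RNA metabolism genes 6 of 47 sites were lower (median -2.44), 3 of 6 in Trove2 and 1 of 11 in Ncl, and 0 of 7 in Adarb1.

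Among genes of immune signalling and interferon response 6 of 9 had an edited site, and 5 of their 14 sites were lower, in 3 genes, with a median of -5.37 points. Slfn5, an interferon-induced Schlafen gene, had 3 called sites of 5, one of them, position 82776086 of chromosome 11, at 25.6%, 19.0% and 15.4% in WT and at 0.0887%, 0% and 0.0883% in E861A. Mpeg1, which encodes a macrophage pore-forming protein, was at 14.9%, 16.8% and 3.76% in WT and at 0.114%, 0.0920% and 0% in E861A. Malt1, of antigen receptor signalling, had 1 called site of 4, and Ifnar1, an interferon receptor gene, 0 of 2. Among cytoskeleton and adhesion genes 6 of 25 sites were lower (median -2.35), 2 in Ecm2, 2 in Taok1, 1 in Nrp1 and 1 in Rhoa. The kidney disease and osmotic genes had 2 lower sites of 16 (median -2.81), in Gla and Igf2, and 0 of 2 in Pkd2, the polycystin-2 gene, and 0 of 1 in Nfat5, the osmotic response factor. In these 7 lists 0 sites were higher in E861A.

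Sequence context was described on the transcribed strand for the 5128 covered positions, all of which carried A in mm9. The base 5′ of the site was T at 49 of the 91 lower sites (53.8%), at 24 of the 43 sites above 1% in every covered E861A replicate (55.8%) and at 751 of the 4596 covered positions that were not edited (16.3%). It was T at 137 of the 358 sites edited in WT alone (38.3%) and at 68 of the 133 edited in both genotypes (51.1%). The 43 sites are called kept here, although 2 of them were edited in E861A and not in WT. The 5′ base was G at 5 lower sites (5.49%), at 3 kept sites (6.98%) and at 1159 unedited positions (25.2%). The triplet TAG, with the site in the middle, was found at 22.0% of lower, 25.6% of kept and 4.87% of unedited positions. Its share was 17.0% among sites edited in WT alone and 24.1% among those edited in both. The base 3′ of the site was C at 16.5% of lower and 6.98% of kept sites and T at 13.2% and 20.9%, with G the most frequent in both. The edited sets overlap, with 4 sites in both the lower and the kept set. Positions of 1 locus are not independent, and no difference between the sets was tested.

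Many sites lie in repeats. The 10 bases on either side of the site had an exact copy elsewhere in mm9, on either strand and with any base at the site, at 250 of 532 edited sites (47.0%), 48 of the 91 lower sites (52.7%) and 16 of the 43 kept sites (37.2%). A copy with G at the site existed for 34.2%, 37.4% and 23.3% of these sites. The lost Agphd1 site at position 54795019 had 209 copies, 8 of them with G, and the kept uc012aji.1 site at position 6123047 had 303 copies, 56 with G. The kept Iqgap1 site had 23 copies, 1 with G. The Cog3, Copa, Rpa1 and Dclre1c sites had 0 copies, and Flna had 1, without G. Whether reads from such copies reached the counts was not tested.

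The change in kidney was set against liver, brain and spleen by interaction contrasts over 12 libraries each, at sites covered in both tissues and edited in at least one. A negative value means that the change from WT to E861A was more negative in kidney, through a larger fall there or a rise in the other tissue. Among the sites that differed, the E861A mean was over 1 point above WT at 3 in brain and 2 in spleen. A site with WT editing near 0 in 1 tissue can fall little there, so the choice of sites partly fixed the direction. The labels do not say whether libraries of different tissues came from the same mouse, and the 12 libraries were fitted as independent. Against liver 1 of 666 sites differed (0.150%, limma), with 32 at an unadjusted p under 0.05. That site was the Rragd position 33107392, edited at 52.3%, 59.5% and 31.4% in WT kidney but at 0% in both covered WT liver replicates, and at most 0.693% in E861A liver (-6.56 ± 0.87, adjusted p = 0.0117). The count was 0 with either replicate block. It was 9 without kidney WT replicate 3, 3 without kidney WT replicate 1 and 0 without kidney E861A replicate 3. It was 10 without liver WT replicate 3, 2 without liver WT replicate 1 or liver E861A replicate 3, and 0 without liver WT replicate 2. The Rragd site was covered in liver WT replicates 1 and 2 alone, so it left the test without either of them. The counts of those settings therefore concern other sites.

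Against brain 14 of 797 sites differed (1.76%, limma), 10 of them with the more negative change in kidney. At 9 of the 14 the mean WT level was above 1% in kidney and under 1% in brain. In Mgat4a, position 37499238 of chromosome 1 was at 25.1%, 19.1% and 15.3% in WT kidney and at 0.0982% and 0.102% in WT brain (-4.59 ± 0.65, adjusted p = 0.0208). In uc012aji.1, position 6123112 was at 9.51%, 13.9% and 6.38% in WT kidney and at most 0.148% in WT brain (-3.57 ± 0.58), and in Slc35e2, position 154996013 of chromosome 4 was at 8.69%, 13.5% and 19.3% against at most 0.0794% (-4.12 ± 0.68). In the other direction Tln2, a talin gene, was edited at 18.1%, 12.8% and 7.21% in WT brain and at most 0.323% in WT kidney (3.67 ± 0.63). Gnl3l, which encodes a nucleolar GTPase, differed in another way. Position 147419991 of chromosome X was at 12.9%, 18.5% and 11.0% in E861A brain but at most 0.179% in WT brain, whereas kidney was at 0.196%, 1.19% and 6.30% in WT and at most 0.217% in E861A (-5.27 ± 0.90). The adjusted p was 0.0208 at all 5 of these sites. The brain count was 0 with either replicate block and 0 on the untransformed level. It was also 0 without any 1 of the 3 kidney E861A replicates or brain E861A replicate 2, 4 and 3 without kidney WT replicate 1 and 2, and 28 without kidney WT replicate 3. Without brain WT replicate 1 or 3 it was 25 or 40.

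Against spleen 58 of 629 sites differed (9.22%, limma), 55 with the more negative change in kidney, and 132 had an unadjusted p under 0.05. Kidney had 532 edited sites and spleen 284, so more sites could enter through kidney, and the direction was partly fixed by that choice. At 49 of the 58 the mean WT level was above 1% in kidney and under 1% in spleen. The smallest adjusted p was at the uc012aji.1 position 6122608, with 42.9%, 35.5% and 33.3% in WT kidney and at most 0.127% in WT spleen (-6.06 ± 0.57, adjusted p = 7.45e-05). It was followed by Rragd position 33107392 (-6.83 ± 0.78, adjusted p = 0.000309), at most 0.207% in WT spleen, and Cds2 position 132135369 (-5.35 ± 0.64, adjusted p = 0.000365), at most 0.325%. Agphd1 position 54795019 was at 0.440%, 0% and 0% in WT spleen (-7.49 ± 0.92), and Slc35e2 position 154996012 at 11.7%, 15.6% and 11.2% in WT kidney and at most 0.0439% in WT spleen (-4.06 ± 0.54). Both had an adjusted p of 0.000559. Without kidney WT replicate 3 the share of sites that differed was 23.9%, and the count was 36, 36 and 37 without spleen E861A replicate 1, 2 and 3.

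**Figure D5:**
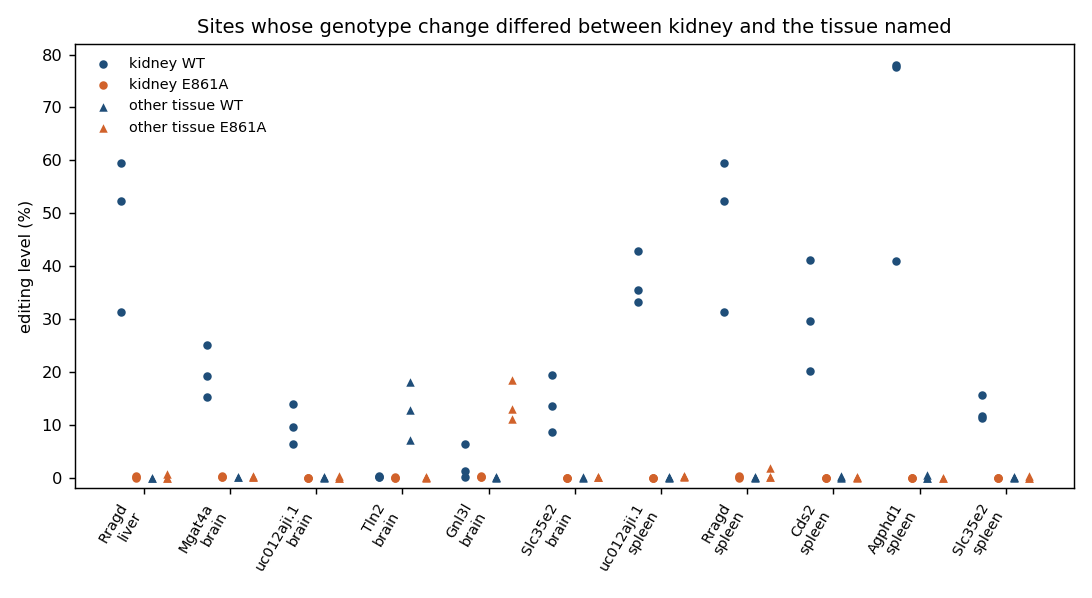
Points are editing levels in percent at the sites with the smallest adjusted p in each comparison of kidney with another tissue, circles for kidney and triangles for the tissue named under the gene, with up to 3 libraries per group. Most of these sites are edited in WT kidney and near 0 in the other 3 groups, while Tln2 is edited in WT brain and Gnl3l in E861A brain.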

How the data were processed

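The series holds 48 mmPCR-seq libraries, of which 6 are from kidney. The authors deposited, for each of 48715 positions, the count of reads covering it and the count of edited reads, without normalization, and the editing level as a fraction of the 2 counts, which was recomputed and matched within 0.0005. The submitters' processing notes name STAR, SAMtools and mm9, with versions not given in the sources used here. 2 further deposited tables were not used here.

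Levels of 100 reads or fewer were treated as missing. Editing was compared on log2((level + 0.01)/(1 - level + 0.01)) over the 6 kidney libraries in R 4.3.3, using the linear models of limma 3.58.1 with trended empirical Bayes variances, with Benjamini-Hochberg adjustment over all edited sites or loci and a threshold of 0.05, and tissues were compared through an interaction term fitted to 12 libraries. The mean levels of libraries were compared by a two-sided exact permutation test. The limma, quasi-binomial, interaction and F tests were run on simulated sites with large falls and an assumed replicate spread. That spread was not fitted to these libraries, so the rate of false calls here was not checked. Alternatives covered coverage and level limits, offsets, other models, the criterion of the study's methods, which joins an F test at 0.1 to a difference in mean level of 5.0 points or more, the replicate block and leaving out libraries. Sequences were read from mm9 (NCBIM37) with Python 3.11.15, pandas 2.3.3 and numpy 2.4.6, and figures drawn with matplotlib 3.10.9. Gene symbols are those of the files. Of 170 names 138 were current in RefSeq and 9 were older symbols.

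The members, lists and tests were chosen with earlier results of these data known. Sites named were the 10 largest falls among called sites whose genotypes did not overlap (at most 2 per locus), every edited coding and Adarb1 site, the 10 highest E861A levels among sites above 1% in every covered E861A replicate (at most 2 per locus), any site higher in E861A and the 5 smallest adjusted p per interaction. Loci named were the 12 with the most edited sites and the 5 with the largest fall. Results for 2 genes that these rules name are not reported here. List examples began with the members with the most edited sites. Other members and other names were added after their values were seen.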

Additional observations from a re-analysis of the deposited data

Results flagged for a closer look

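The genotype change differed between kidney and another tissue at the following named sites, by the limma interaction test, and the values are differences in log2 change of the editing ratio, kidney minus the other tissue. Against liver it was -6.56 at the Rragd 3′ UTR site. Against brain it was -4.59 in Mgat4a, -3.57 in uc012aji.1, -4.12 in Slc35e2 and -5.27 in Gnl3l, and 3.67 in Tln2. Against spleen it was -6.06 in uc012aji.1, -6.83 in Rragd, -5.35 in Cds2, -7.49 in Agphd1 and -4.06 in Slc35e2. At the 5 spleen sites the adjusted p stayed under 0.05 in every alternative run, with the highest 0.0157 in Agphd1. At the brain sites it rose to 0.217 or more, and at the liver site to 0.286, in at least 1 alternative. Groups of 3 libraries were not searched for single outlying libraries.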

How the results depend on the processing

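The count of 91 lower sites was 60 with no edited limit, 56 with an offset of 0.05, 24 on the untransformed level and 60 with the replicate block, and 55 to 200 with 1 replicate left out. Higher sites numbered 0, but 2 with no edited limit, 8 in the fit over all 48 libraries, and 0 to 1 with 1 replicate left out. The mean level difference of -5.53 percentage points was -12.1 with an edited limit of 5%, over fewer and more highly edited sites, -4.29 as a mean over loci, and -5.25 to -5.92 with 1 replicate left out, and the replicate block gave an exact p of 0.25, the smallest that sign flips of 3 pairs allow. The share of WT-edited sites also edited in E861A was 21.6% when a genotype's level was the median of its replicates, and 21.5% to 29.2% with 1 left out. The 38 lower loci became 65 with at least 1 site per locus and 15 with at least 5, because more or fewer loci were tested, and numbered 28 to 42 with 1 replicate left out and 28 with the replicate block. The share of sites whose change differed from liver, 0.150%, became 0% with an offset of 0.001, on the untransformed level, at coverage over 500 reads and with either replicate block, and 0% to 1.66% with 1 library left out. The share for brain, 1.76%, became 0.753% with an offset of 0.05, 0% on the untransformed level and 0% with either replicate block, and 0% to 6.75% with 1 library left out. The share for spleen, 9.22%, became 4.29% on the untransformed level, 7.31% and 7.15% with the replicate blocks, and 5.77% to 23.9% with 1 library left out. The cause of these shifts was not tested. The block by number across tissues, and leaving out libraries of the other tissues, were chosen after seeing the data.

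Same-numbered WT and E861A kidney libraries did not deviate together (r of 0.0751, -0.111 and 0.00314 across sites), so the number was not taken as a pairing. In 0 of the alternatives run did a named site or locus that passed the test in either setting change direction. Depth limits what can be said of levels near the 1% limit, and of sites listed at 0 the counts bound the level by counting error only.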
